A study of Mus musculus with 18 samples.

Results

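The RNA of 10 genes of the NF-kB pathway was followed through B cell differentiation, namely the 5 subunit genes Rel, Rela, Relb, Nfkb1 and Nfkb2, the inhibitor genes Nfkbia, Nfkbib and Nfkbie, the deubiquitinase gene Tnfaip3 and the kinase gene Ikbkb. They were taken by symbol from the deposited table of 21761 genes, and all 10 were found and passed the filter on low values. The set was selected on a measured value, since the study names Relb as higher in Dnmt3-deficient plasma cells and the other members were added as its family and regulators. Values of Relb in plasma cells and the genotype contrast of plasma cells are therefore given as a description with no test. RNA-seq covered 18 libraries in 6 groups of 3, formed by 3 cell types and both genotypes, each made from 5000 sorted cells. Naive B cells (nB, B220+ Fas- GL7-) came from lymph nodes of unimmunized mice. Germinal center B cells (GCB, B220+ Fas+ GL7+, binding phycoerythrin, PE) from the same kind of node and plasma cells of bone marrow (BMPC, CD138+) were collected 30 days after immunization. Mice were immunized with PE in complete Freund's adjuvant. Differences of GCB or BMPC from nB therefore cannot be told apart from those of immunization. BMPC also came from another organ, which cannot be told apart from cell type, and unlike GCB were not sorted by binding of PE. Per the study, BMPC came mostly from male mice, and nB and GCB mostly from female mice. Sex was added to the fit as an alternative. Each GCB library pooled cells of 2 mice. All mice were 8 to 12 weeks old when an experiment began, of mixed B6;129S4 background and carried floxed alleles of both methyltransferase genes, Dnmt3a fl/fl and Dnmt3b fl/fl. Dnmt3-deficient mice also carried 1 Cre allele that acts in the B lineage, and Dnmt3-sufficient littermates carried no Cre.

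Libraries of nB and GCB held between 6692516 and 8987922 reads on the listed genes, and BMPC libraries between 1355231 and 3803197, so that a read weighs more in BMPC and between 26.0% and 40.1% of the tested genes had 0 reads there against at most 10.9% in nB and GCB. FPKM is a read count scaled to a gene's exon length and to the library's reads on listed genes. Summed germinal center markers ran from 1049 to 1161 FPKM in GCB and stayed at or under 83.5 FPKM in the other cells, and summed plasma cell markers ran from 18915 to 51504 FPKM in BMPC and stayed at or under 1520 FPKM elsewhere. BMPC also held neutrophil transcripts (9.37 to 582 FPKM over 8 markers, of which Mmp8 was at 0) that had 0 reads in every nB and GCB library, and erythroid transcripts (160 to 2229 FPKM over 5 markers). The erythroid markers were also at 22.5 to 218 FPKM in Dnmt3-deficient nB, against 0.468 to 1.42 FPKM in Dnmt3-sufficient nB. The FPKM of a gene adds reads over all its exons, and Dnmt3a was at 2.35 to 5.18 FPKM in Dnmt3-sufficient and 2.24 to 4.33 FPKM in Dnmt3-deficient nB. In BMPC the Dnmt3-deficient libraries reached higher values, at 0.0544 to 3.08 against 0 to 0.768 FPKM for Dnmt3a and 0 to 9.29 against 0 to 1.37 FPKM for Dnmt3b. Reads of the floxed exons are not given apart, so these values do not check the genotype labels. In bulk RNA, fewer cells of a type and less RNA per cell cannot be told apart.

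NF-kB is a family of dimeric transcription factors. In resting cells most dimers are held in the cytoplasm by inhibitors of the IkB family, and signals from the B cell receptor, CD40, BAFF receptor or Toll-like receptors activate IkB kinases, which mark the inhibitor for degradation and let the dimer enter the nucleus. The canonical arm works mainly through the products of Rel, Rela and Nfkb1, and the alternative arm through Relb and Nfkb2. In B cells the pathway sustains survival, activation and the germinal center response, and NF-kB switches on its own inhibitors Nfkbia and Tnfaip3, which end the signal.

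The promoters of Rel, Nfkb2 and Nfkbia are shown because these are the 3 members that were called lower in GCB than nB in Dnmt3-sufficient cells. Each stretch covers 250 bases before to 50 bases after a RefSeq start site on GRCm38.p6, a later build than the mm9 of the expression table, read 5′ to 3′ on the gene's strand. Capitals mark matches to the kB motif, the 10-letter consensus sequence that NF-kB dimers bind, searched on both strands.
Rel, chr11:23770920-23771219, minus strand: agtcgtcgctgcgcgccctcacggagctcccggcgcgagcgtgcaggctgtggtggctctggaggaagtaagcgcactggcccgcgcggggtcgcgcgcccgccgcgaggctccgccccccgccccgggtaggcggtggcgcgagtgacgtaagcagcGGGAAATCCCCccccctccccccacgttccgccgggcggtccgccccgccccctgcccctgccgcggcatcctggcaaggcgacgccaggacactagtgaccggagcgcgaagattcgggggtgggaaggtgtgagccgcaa
Nfkb2, chr19:46304487-46304786, plus strand: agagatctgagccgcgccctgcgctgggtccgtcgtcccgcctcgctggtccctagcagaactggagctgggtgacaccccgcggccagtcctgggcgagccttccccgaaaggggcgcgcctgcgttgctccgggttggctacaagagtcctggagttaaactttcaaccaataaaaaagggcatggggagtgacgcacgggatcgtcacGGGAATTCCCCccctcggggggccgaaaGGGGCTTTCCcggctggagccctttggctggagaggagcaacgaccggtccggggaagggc
Nfkbia, chr12:55492598-55492897, minus strand: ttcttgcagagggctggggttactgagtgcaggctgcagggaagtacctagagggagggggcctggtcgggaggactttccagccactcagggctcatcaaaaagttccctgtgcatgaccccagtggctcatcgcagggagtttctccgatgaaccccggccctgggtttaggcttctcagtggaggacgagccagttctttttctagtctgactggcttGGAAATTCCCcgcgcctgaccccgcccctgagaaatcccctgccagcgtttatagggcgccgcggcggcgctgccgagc
In Rel and in the upstream block of Nfkb2 the capitals hold a pair of overlapping matches. The Nfkbia match begins 29 bases before the start site, the Rel matches 92 and 91 bases before it, and those of Nfkb2 39, 38 and 11 bases before it. RefSeq promoters were matched for 7 of the 10 members, with 10 start sites in all. Of these members 5 had a kB match (Rel, Nfkb2, Nfkbia, Nfkbie and Tnfaip3), and Rela and Nfkbib had none in this window, beside a match in 5.14% of all genes with such a promoter. Counted by start site, 7 of 10 held a match, beside 4.51% of all 32851 promoters of this length. Nfkb2 has further start sites that are not printed, and their windows overlap and share a match that counts in each. A match describes the letters and does not show a bound site.

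Members were compared between cell types with limma on log2(FPKM + 1) over all 18 libraries, and a gene was called at a Benjamini-Hochberg adjusted p of 0.05 or less over the 11522 genes tested and a change of at least 1 on that log2 scale. In Dnmt3-sufficient cells Rel, Nfkb2 and Nfkbia (3 of 10) were called lower in GCB than nB and none higher, where 6.93% of all tested genes were called lower and 7.22% higher. In Dnmt3-deficient cells Nfkb2 and Nfkbia (2 of 10) were called lower and none higher, beside 6.61% and 6.31% of all genes. All 10 members had a lower fitted mean in GCB than in nB in both genotypes. The members' median change came to -1.49 with Dnmt3 and -1.07 without it on the log2(FPKM + 1) scale, beside -0.11 and -0.13 for all tested genes.

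Plasma cells stood further from nB. Leaving out Relb, 7 of 9 members were called lower in Dnmt3-sufficient BMPC than nB and none higher, where 27.6% of all genes were called lower and 9.74% higher. In Dnmt3-deficient cells 6 of 9 were called lower and none higher, beside 30.6% and 6.85% of all genes. Against GCB, Rel and Nfkb1 (2 of 9) were called lower and Nfkbia higher in Dnmt3-sufficient BMPC, beside 20.9% and 6.67% of all genes. In Dnmt3-deficient BMPC Rel, Nfkb1 and Ikbkb (3 of 9) were called lower than in GCB and Nfkbia higher, beside 26.1% and 6.14%. The median of all tested genes was itself -0.70 and -0.84 from nB to BMPC and -0.56 and -0.73 from GCB to BMPC in Dnmt3-sufficient and Dnmt3-deficient cells, and members are to be read against that shift. Scaling by the median of ratios moved these 4 medians by between 0.06 and 0.18, and no called member turned its direction under it.

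**Figure D1:**
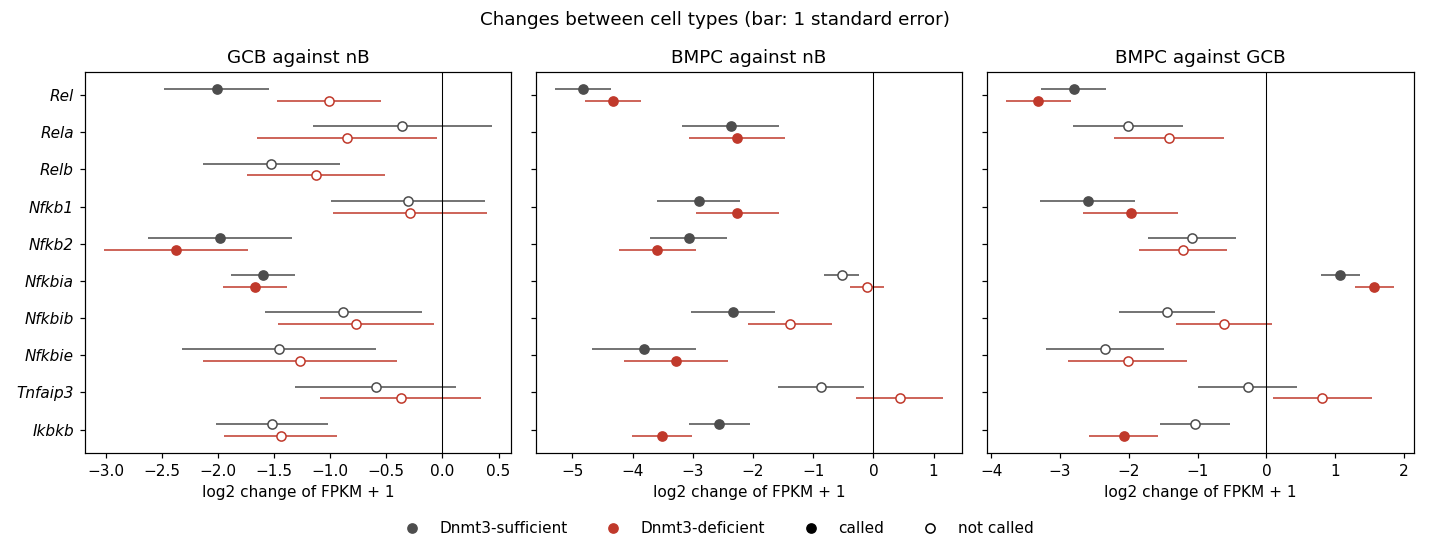
Log2 change of FPKM + 1 of each member between cell types, with 1 standard error, in Dnmt3-sufficient (grey) and Dnmt3-deficient cells (red). Filled points were called, open points were not, and Relb is shown only for GCB against nB. Members lie left of 0 from nB to GCB, while Nfkbia lies right of 0 from GCB to BMPC at 1.07 and 1.57.

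Rel (chr11:23641514-23670970 on mm9, minus strand) encodes c-Rel, a subunit with a transactivation domain that is abundant in lymphocytes. Its FPKM was 33.1, 25.3 and 23.9 in the Dnmt3-sufficient nB libraries and 20.6, 26.8 and 12.4 in the Dnmt3-deficient ones. In GCB the values were 9.0, 2.68 and 8.23 in Dnmt3-sufficient and 9.05, 12.6 and 6.18 in Dnmt3-deficient cells. All 6 BMPC libraries had 0 Rel reads. The 3 cell types were thus in separate ranges in Dnmt3-sufficient mice, and in Dnmt3-deficient mice the lowest nB library lay within the GCB range. From nB to GCB, Rel fell by 2.01 ± 0.47 (SE) in Dnmt3-sufficient cells (limma, adjusted p = 0.0065), whereas the change of -1.01 ± 0.47 in Dnmt3-deficient cells was not called (adjusted p = 0.188). The genotype difference of these changes was 1.00 ± 0.66 (adjusted p = 1.0), so they were not shown to differ. With the shared title starts of GCB libraries fitted as a block, the Dnmt3-sufficient call from nB to GCB was lost (-1.75, limma, adjusted p = 0.103). Taking 3 reads in each BMPC library as the floor, which covers counting error only, Rel was at least 71.4-fold lower in BMPC than nB in Dnmt3-sufficient and at least 28.7-fold lower in Dnmt3-deficient cells. Against GCB these bounds were 17.3-fold and 13.4-fold. The falls in BMPC were called under every alternative run, with adjusted p values of 8.79e-07 and 3.21e-06 against nB.

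Rela (chr19:5637483-5648130, plus strand) encodes the p65 subunit, the main activator of the canonical arm, and was the most abundant subunit gene by FPKM in nB and GCB. Its FPKM was 61.9, 58.0 and 73.5 in Dnmt3-sufficient nB and 93.6, 94.2 and 66.2 in Dnmt3-deficient nB. GCB gave 44.6, 59.4 and 46.6 in Dnmt3-sufficient and 47.7, 54.1 and 37.6 in Dnmt3-deficient cells. BMPC values were widely spread, at 32.6, 19.2 and 1.93 in Dnmt3-sufficient and 2.94, 37.3 and 34.9 in Dnmt3-deficient cells, the lowest of which rest on 19 and 13 reads. Each genotype thus had a BMPC library far under the others, and no BMPC library reached the nB range. Rela was called lower in BMPC than nB at -2.37 ± 0.80 (limma, adjusted p = 0.0269) and -2.27 ± 0.80 (adjusted p = 0.0329). These calls rested on single libraries. Without BMPC replicate 3 the Dnmt3-sufficient change was -1.32 (adjusted p = 0.146), and without BMPC replicate 1 the Dnmt3-deficient change was -1.19 (adjusted p = 0.178), and leaving out any nB library of the genotype also lost the call (adjusted p from 0.0559 to 0.073 and from 0.0576 to 0.0841). Without BMPC replicate 1 the Dnmt3-sufficient change was instead -3.08. Testing all genes with no filter also ended both calls (adjusted p = 0.0837 and 0.098). Under the median of ratios the Dnmt3-deficient call was lost as well (adjusted p = 0.0622). The change from nB to GCB was not called in either genotype (adjusted p = 0.849 and 0.596).

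Relb (chr7:20191566-20214787, minus strand) encodes the activating partner of the alternative arm and was the lowest subunit gene in nB and GCB on the mean. FPKM was 20.1, 9.11 and 10.8 in Dnmt3-sufficient nB and 9.41, 3.63 and 13.3 in Dnmt3-deficient nB. In GCB it was 2.96, 4.70 and 3.66 in Dnmt3-sufficient and 4.53, 2.05 and 2.92 in Dnmt3-deficient cells. The Dnmt3-sufficient nB and GCB ranges did not overlap, and in Dnmt3-deficient mice nB replicate 2 lay inside the GCB range. The change from nB to GCB was -1.53 ± 0.61 (limma, adjusted p = 0.112) and -1.13 ± 0.61 (adjusted p = 0.282), so it was not called in either genotype. Without Dnmt3-deficient BMPC replicate 1, which enters only the common estimate of spread, Relb and Ikbkb were called in Dnmt3-sufficient cells and the count of called members went from 3 to 5. Ordered by group mean, Relb stood at 13.3 ± 5.91 (SD, n = 3) in Dnmt3-sufficient nB, 8.77 ± 4.86 in Dnmt3-deficient nB, 5.25 ± 5.04 in Dnmt3-deficient BMPC, 3.77 ± 0.87 in Dnmt3-sufficient GCB, 3.17 ± 1.26 in Dnmt3-deficient GCB and 0 in Dnmt3-sufficient BMPC. Each neighbouring pair in that order overlapped except the last.

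Nfkb1 (chr3:135247619-135354511, minus strand) encodes the precursor of p50, the usual partner of p65 and c-Rel. Its FPKM ranged from 27.9 to 54.6 over the 6 nB libraries and from 25.7 to 32.0 over the 6 GCB libraries. The change from nB to GCB was small beside its error, at -0.31 ± 0.69 and -0.29 ± 0.69 (limma, adjusted p = 0.849 and 0.878). BMPC values were 6.82, 0 and 14.7 in Dnmt3-sufficient and 9.04, 4.74 and 5.76 in Dnmt3-deficient cells, below every GCB and nB library. Against nB, Nfkb1 was lower in BMPC by 5.28-fold in the mean FPKM of Dnmt3-sufficient cells (log2 change -2.90 ± 0.69, adjusted p = 0.00316) and by 5.23-fold in Dnmt3-deficient cells (-2.26 ± 0.69, adjusted p = 0.0155). The Dnmt3-sufficient change was -1.75 without BMPC replicate 2, the library with 0 reads, and -3.73 without BMPC replicate 3, and it was called in both cases. A pseudocount of 0.1 or voom on the recovered reads ended the second call (adjusted p = 0.121 and 0.118). Against GCB the changes were -2.60 (adjusted p = 0.00909) and -1.97 (adjusted p = 0.0351), and the latter was lost without any 1 of the 3 GCB libraries or BMPC replicates 2 or 3 of that genotype (adjusted p from 0.0713 to 0.0854) and under the median of ratios (0.068), with a pseudocount of 0.1 (0.181), with no filter (0.0858) and with voom (0.178). The Dnmt3-sufficient change against GCB was -1.44 without BMPC replicate 2 and -3.43 without BMPC replicate 3.

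Nfkb2 (chr19:46379227-46386580, plus strand) encodes the precursor of p52, the partner of RelB. FPKM was 43.8, 39.3 and 27.0 in Dnmt3-sufficient nB and 28.5, 41.2 and 34.3 in Dnmt3-deficient nB. In GCB it was 8.18, 10.1 and 7.01 in Dnmt3-sufficient and 5.53, 8.57 and 4.01 in Dnmt3-deficient cells. The lowest nB library was above the highest GCB library in both genotypes. The mean was 4.35-fold lower in Dnmt3-sufficient GCB (log2 change -1.98 ± 0.64, limma, adjusted p = 0.0451) and 5.74-fold lower in Dnmt3-deficient GCB (-2.38 ± 0.64, adjusted p = 0.0184). The Dnmt3-sufficient call was lost when any 1 of the 12 nB and GCB libraries was left out, with changes from -2.18 to -1.84 and adjusted p from 0.0547 to 0.136. The Dnmt3-deficient call was lost without nB replicate 2 or 3 or GCB replicate 1 or 3 (adjusted p = 0.0678, 0.0573, 0.062 and 0.0815). A pseudocount of 0.1 ended both calls (adjusted p = 0.17 and 0.0886), and having no filter or sex as a covariate ended the Dnmt3-sufficient one (0.0845 and 0.0545). In BMPC the values were 0.58, 4.82 and 8.42 in Dnmt3-sufficient and 0.468, 1.32 and 6.41 in Dnmt3-deficient cells, which overlap GCB. Against nB, Nfkb2 changed by -3.06 ± 0.64 (adjusted p = 0.00126) and by -3.59 ± 0.64 (adjusted p = 0.000373) and stayed called under every alternative, with -2.32 without Dnmt3-sufficient BMPC replicate 1 and -4.26 without Dnmt3-deficient BMPC replicate 3.

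**Figure D2:**
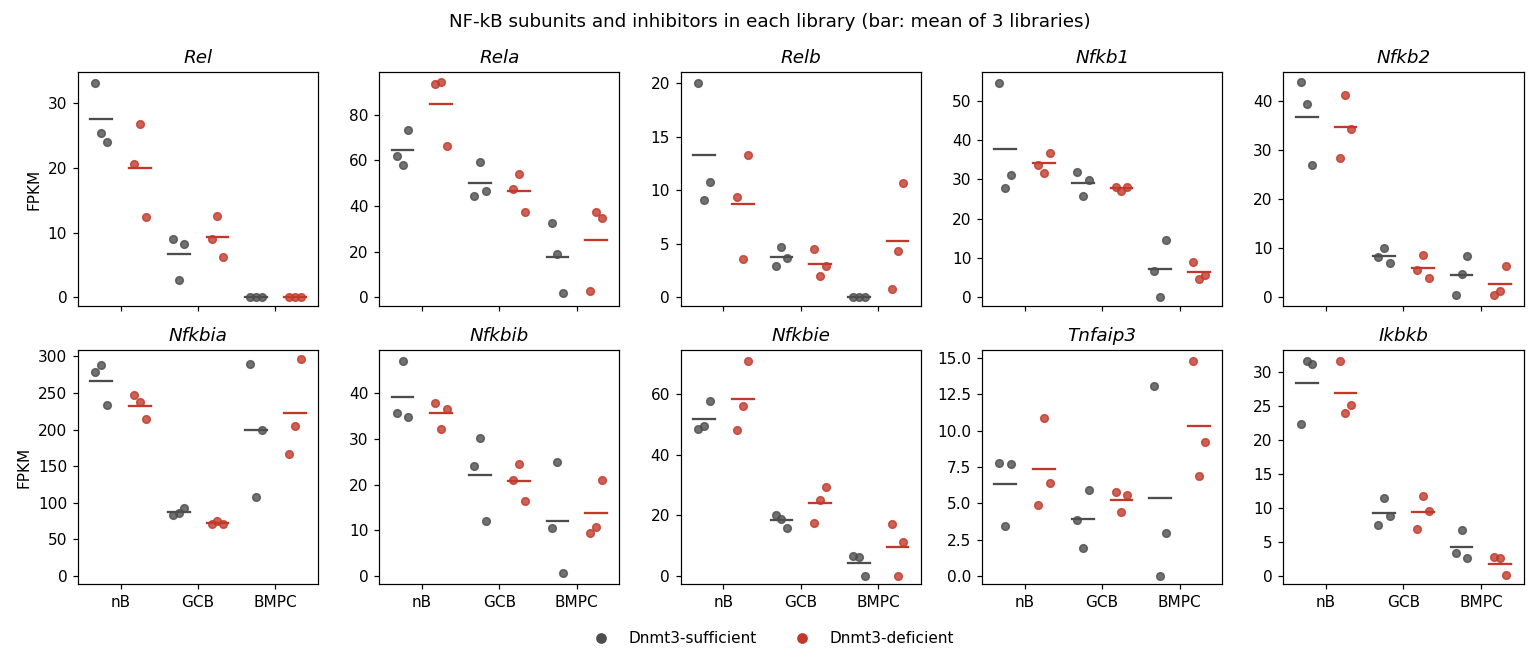
FPKM of each member in each of the 18 libraries (points) with the mean of 3 libraries (bars), by cell type and genotype, with a separate linear axis for each gene. Rel is at 0 in the 6 BMPC libraries and Relb at 0 in the 3 Dnmt3-sufficient BMPC libraries, while Nfkbia is lowest in GCB.

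The 5 subunits were also expressed as shares of their summed FPKM, which does not depend on the scale of a library. The sum was 181 ± 21.7 FPKM in nB (SD, n = 6, range 160 to 214), 95.4 ± 9.12 in GCB (78.6 to 104) and 34.6 ± 16.7 in BMPC (13.2 to 57.7), and the 3 ranges did not overlap. The Nfkb2 share was 15.3% to 24.6% in nB and 5.10% to 9.87% in GCB, with means of 19.8% and 7.47%. That difference of -12.3 percentage points had an exact two-sided permutation p of 0.00216, the smallest that 6 against 6 libraries can give (adjusted p = 0.0108 over the 5 subunits). The Nfkb1 share rose from 19.7% to 30.1% (exact permutation, adjusted p = 0.0108), with a small overlap of the ranges. Rel went from 13.0% to 8.34% and Rela from 41.4% to 50.5% (both exact permutation, adjusted p = 0.0379). The 5 shares are parts of 1 sum, so a fall of some raises others and the 5 results are not independent. By mean FPKM neither Nfkb1 nor Rela rose, at 35.9 in nB and 28.4 in GCB for Nfkb1 and 74.6 and 48.3 for Rela. The Relb share of 6.11% in nB and 3.66% in GCB did not pass (exact permutation, adjusted p = 0.0649), but passed without Dnmt3-deficient nB replicate 2 (0.0108). Without Dnmt3-sufficient nB replicate 1, 2 or 3, for example, the Rel and Rela results no longer passed (exact permutation, adjusted p = 0.0758 for each). Left out in turn, 9 of the 12 libraries ended the Rel result and 9 the Rela result, and reads in place of FPKM ended the latter (0.0736). In BMPC the shares followed single libraries, with Rela between 7.72% and 81.5% and Nfkb1 between 0% and 68.5%.

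**Figure D3:**
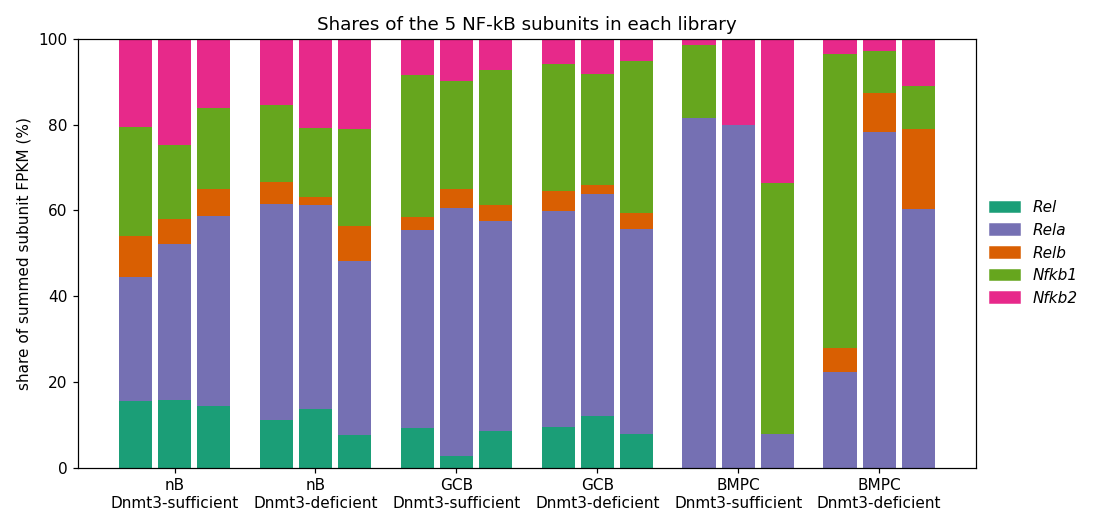
Share of each of the 5 NF-kB subunits in their summed FPKM, in percent, as a stacked bar for each of the 18 libraries. The Nfkb2 segment is 15.3% to 24.6% high in nB and 5.10% to 9.87% in GCB, and the BMPC bars differ from library to library.

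Nfkbia (chr12:56590398-56593634, minus strand) encodes IkB-alpha, the inhibitor that is degraded and resynthesized in each round of canonical signaling. It was the most abundant of the 10 members in all 18 libraries. FPKM was 278, 288 and 233 in Dnmt3-sufficient nB and 247, 238 and 214 in Dnmt3-deficient nB. In GCB it was 83.4, 85.3 and 92.2 in Dnmt3-sufficient and 71.0, 75.5 and 70.2 in Dnmt3-deficient cells. BMPC gave 290, 107 and 200 in Dnmt3-sufficient and 167, 205 and 297 in Dnmt3-deficient cells. The GCB range thus lay below every nB and BMPC library, while nB and BMPC overlapped. From nB to GCB Nfkbia changed by -1.6 ± 0.29 (limma, adjusted p = 0.000836) and by -1.67 ± 0.29 (adjusted p = 0.000632), and both calls held under every alternative. It was higher in BMPC than GCB, 2.29-fold in the mean FPKM of Dnmt3-sufficient cells (log2 change 1.07 ± 0.29, adjusted p = 0.00958) and 3.08-fold in Dnmt3-deficient cells (1.57 ± 0.29, adjusted p = 0.000507). Without Dnmt3-sufficient BMPC replicate 1 the former was 0.75 and under the minimum change (adjusted p = 0.049). With sex as a covariate or with voom it was also under that minimum. The adjusted p of this change was 0.0992 with only the groups compared and 0.0608 with the replicate block in GCB. The change from nB to BMPC was not called (adjusted p = 0.154 and 0.812). The ratio of Nfkbia FPKM to the summed FPKM of the 5 subunits spanned 1.20 to 1.81 over the nB libraries, 0.724 to 0.966 over those of GCB and 4.29 to 12.6 over those of BMPC, given here as a description.

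Nfkbib (chr7:29543270-29552531, minus strand) encodes IkB-beta and Nfkbie (chr17:45692665-45700118, plus strand) IkB-epsilon, which hold dimers for longer. Nfkbib ranged from 32.3 to 47.1 FPKM over the nB libraries, from 12.0 to 30.2 over those of GCB and from 0.689 to 25.0 over those of BMPC. Its fall from nB to Dnmt3-sufficient BMPC was called at -2.33 ± 0.70 (limma, adjusted p = 0.0148), and not without nB replicate 2 (-2.19, adjusted p = 0.0501) or BMPC replicate 3 (-1.21, adjusted p = 0.0562), while it was -3.18 without BMPC replicate 2. Dnmt3-sufficient BMPC replicate 3 held 5 Nfkbib reads, against 46 and 190 in the others of its group. In Dnmt3-deficient BMPC the change of -1.39 ± 0.70 was not called (adjusted p = 0.125). Nfkbie ranged from 48.1 to 70.9 FPKM in nB and from 15.8 to 29.4 in GCB, separate ranges that were nonetheless not called (adjusted p = 0.314 and 0.419), with an SE of 0.86 that comes from all 6 groups. In BMPC Nfkbie was 6.39, 6.30 and 0 in Dnmt3-sufficient and 16.9, 0 and 11.3 in Dnmt3-deficient cells. Its mean was 12.3-fold lower than in nB in Dnmt3-sufficient (adjusted p = 0.0024) and 6.2-fold lower in Dnmt3-deficient BMPC (adjusted p = 0.00688). On the log2(FPKM + 1) scale the Dnmt3-sufficient change moved from -3.80 to -2.84 without BMPC replicate 3, and the Dnmt3-deficient one from -3.28 to -4.06 without BMPC replicate 1 and to -1.98 without BMPC replicate 2. With only the groups compared the Dnmt3-deficient call was lost (adjusted p = 0.093).

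Tnfaip3 (chr10:18720716-18735463, minus strand) encodes a ubiquitin-editing enzyme that shuts off signaling upstream of the IkB kinases. It was called in no comparison. FPKM ranged from 3.41 to 10.9 over nB libraries, from 1.94 to 5.89 over GCB libraries and from 0 to 14.8 over BMPC libraries, and its lowest adjusted p in a cell type comparison was 0.357. Ikbkb (chr8:23769684-23817061, minus strand) encodes the IkB kinase subunit that phosphorylates IkB-alpha, and its summed exon length in the table was 15776 bases, the longest of the 10 members. FPKM was 22.4, 31.7 and 31.2 in Dnmt3-sufficient and 31.7, 24.1 and 25.2 in Dnmt3-deficient nB. GCB gave 6.93 to 11.8, below every nB library, but the changes of -1.52 ± 0.50 and -1.44 ± 0.50 just missed the threshold (limma, adjusted p = 0.0506 and 0.0678). BMPC gave 3.32, 6.82 and 2.57 in Dnmt3-sufficient and 2.72, 2.67 and 0.056 in Dnmt3-deficient cells, the last from 2 reads. Ikbkb was 6.71-fold lower in BMPC than nB in Dnmt3-sufficient (adjusted p = 0.000793) and 14.9-fold lower in Dnmt3-deficient cells (adjusted p = 5.27e-05), and 5.2-fold lower than in GCB in Dnmt3-deficient cells (adjusted p = 0.00462). Without Dnmt3-deficient BMPC replicate 3, the library with 2 reads, the log2 changes of -3.51 and -2.07 in that genotype were -2.91 and -1.47. With only the groups compared the call against GCB was lost (adjusted p = 0.0747).

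The calls also depended on which libraries gave the spread. The median coefficient of variation of the members with reads was 18.3% and 18.6% for the nB groups, 20.3% and 22.6% for the GCB groups and, far higher, 86.2% and 76.6% for the BMPC groups (Dnmt3-sufficient and Dnmt3-deficient in turn), beside 33.0% and 27.7%, 21.7% and 24.2%, and 82.7% and 86.6% for tested genes with a mean FPKM above 1. When only the groups compared entered the fit, Rel, Relb, Nfkb2, Nfkbia, Nfkbie and Ikbkb (6 of 10) were called lower in Dnmt3-sufficient GCB than nB, where the share of all tested genes called lower was 12.9% in place of 6.93%. In Dnmt3-sufficient BMPC against nB, Rel, Nfkb2, Nfkbie and Ikbkb (4 of 9) were then called lower, and the share of all genes was 16.9% in place of 27.6%. The calls lost there were Rela, Nfkb1 and Nfkbib (adjusted p = 0.126, 0.11 and 0.158), in Dnmt3-deficient BMPC against nB Rela and Nfkbie (0.141 and 0.093), and against GCB Nfkb1 and Nfkbia in Dnmt3-sufficient (0.145 and 0.0992) and Ikbkb in Dnmt3-deficient cells (0.0747). A pseudocount of 0.1 and voom on the recovered reads gave larger falls of low members in BMPC, such as -4.06 and -4.67 for Nfkb1 and -5.01 and -5.32 for Nfkbie in Dnmt3-sufficient BMPC against nB.

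No member was called between genotypes in nB or GCB. Next to no gene of the table was called there either, so this does not set the members apart. With limma 0 of 10 members were called between genotypes in nB, where 0.0521% of all genes were called, and 0 of 10 in GCB, where 0.0% were. At an unadjusted p under 0.05 there were 0 members in either, beside 312 of the 11522 tested genes in nB and 124 in GCB. Neither was the change from nB to GCB called as different between genotypes for any member (0 of 10, 0.0% of all genes). Here too 0 members had an unadjusted p under 0.05, beside 204 of all tested genes. With voom on the recovered reads these counts of members were also 0. Log2 changes of the members lay between -0.62 and 0.38 in nB and between -0.46 and 0.51 in GCB, with standard errors from 0.29 to 0.86. These errors come from all 6 groups, BMPC included, so they do not measure the spread of nB or GCB alone. The libraries of the genotypes did not overlap for 0 members in nB, beside 8.84% of all genes, and for 1 member in GCB, beside 10.6%. That member was Nfkbia, with 83.4 to 92.2 FPKM in Dnmt3-sufficient and 70.2 to 75.5 in Dnmt3-deficient GCB (log2 change -0.26 ± 0.29). The part of the erythroid transcripts of Dnmt3-deficient nB in these values was not tested.

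In BMPC the genotype contrast is described only. Relb had 0 reads in the 3 Dnmt3-sufficient libraries and 4, 19 and 79 reads in the Dnmt3-deficient libraries, which gave 0.752, 4.30 and 10.7 FPKM. The Dnmt3-deficient values thus spanned from near the floor, at 3 reads a library, to the level of nB. Against that floor the Dnmt3-deficient mean of 5.25 FPKM was at least 17.2-fold higher, with the limit that the floor covers counting error only. Without Dnmt3-deficient replicate 3 the mean was 2.53 FPKM and the bound 8.29-fold. Relb was the 1 member whose libraries did not overlap between genotypes, where 10.3% of all tested genes did not overlap. The value of Relb in this contrast is what led to the choice of the set.

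For the other members the genotypes of BMPC overlapped, or had 0 reads throughout in the case of Rel. Tnfaip3 was 13.1, 0 and 2.94 FPKM in Dnmt3-sufficient and 14.8, 6.91 and 9.22 in Dnmt3-deficient BMPC. Over the 10 members 7 had a higher and 2 a lower fitted mean in Dnmt3-deficient BMPC, and Rel was at 0 in both. The 7 include Relb, whose value in this contrast led to the choice of the set, so the tally is a description only. The median change of all tested genes in this contrast was -0.05. The 2 lower ones were Nfkb2 and Ikbkb. Nfkb1 counts among the higher ones on the log2(FPKM + 1) scale, but by mean FPKM it went the other way, from 7.17 in Dnmt3-sufficient BMPC to 6.51 in Dnmt3-deficient ones. In the Dnmt3-sufficient libraries 2, 4 and 3 members had 0 reads at depths of 2196198, 3803197 and 3629318 reads, against 1, 2 and 1 in the Dnmt3-deficient ones at 1632925, 1355231 and 2265945 reads. Relb, on which the set was selected, was among them in each Dnmt3-sufficient library. Of all tested genes 26.4% to 32.6% had 0 reads in Dnmt3-sufficient and 26.0% to 40.1% in Dnmt3-deficient BMPC libraries. Marker lists also differed. The 7 plasma cell markers summed to 18915 to 29493 FPKM in Dnmt3-sufficient and 33952 to 51504 FPKM in Dnmt3-deficient BMPC, ranges that did not overlap, and the 7 germinal center markers to 18.5 to 83.5 FPKM and 34 to 57.4 FPKM. The 8 macrophage markers summed to 63.5 to 87.7 FPKM in Dnmt3-sufficient and 98.4 to 227 FPKM in Dnmt3-deficient BMPC, with Cd14, Fcgr1 and C1qa at 0 in all 6. Neutrophil markers summed to 526, 63.4 and 141 FPKM against 9.37, 582 and 535 FPKM, erythroid markers to 1163 to 2229 FPKM against 160 to 814 FPKM and T cell markers to 54.6 to 178 FPKM against 117 to 217 FPKM. The 7 mature B cell markers summed to 110 to 218 FPKM and 109 to 172 FPKM, with the complement receptor gene Cr2 at 0 in every BMPC library. Per the study's methods, the stains of its sorts took out cells that bound antibodies to CD11b, CD11c, CD90.2 or Ly6-G, which mark myeloid cells, T cells and neutrophils. The part of these other cell types in the Relb values was not tested.

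**Figure D4:**
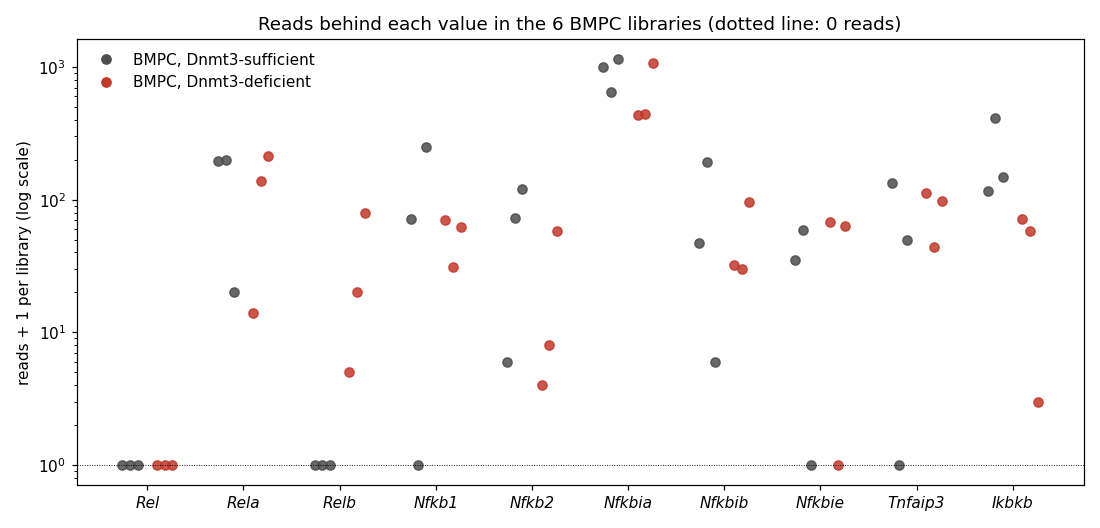
Reads plus 1 behind each member in the 6 BMPC libraries on a log scale, Dnmt3-sufficient in grey and Dnmt3-deficient in red, with 0 reads on the dotted line. Relb has 0 reads in the 3 grey libraries and 4, 19 and 79 in the red ones, and Rel has 0 in all 6.

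Outside the set, the 5 genes whose log2(FPKM + 1) followed Relb most closely over the 18 libraries included Sfi1 (Pearson r = 0.93), Golga3 (0.92), Kif21b (0.91) and P2ry10 (0.90). The likeness is a description, since the points share cell types and BMPC depth. The ranking also uses the BMPC values of Relb that led to the choice of the set. A genotype split of these genes in BMPC is therefore no separate support. P2ry10, a lymphocyte receptor gene, had a mean of 69.1 and 67.7 FPKM in Dnmt3-sufficient and Dnmt3-deficient nB, 11 and 7.75 FPKM in GCB, and 0.355 and 22.2 FPKM in BMPC. Among the members the r with Relb ran from 0.25 for Tnfaip3 and 0.29 for Nfkbia to 0.68 for Rela and Nfkb2.

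The rest of the pathway was followed in 4 lists of 74 genes, of which 73 were tested. From nB to GCB, 5 of 73 were called lower and 1 higher in Dnmt3-sufficient cells, beside 6.93% and 7.22% of all tested genes, so the lower calls were no more frequent than over all genes. In Dnmt3-deficient cells 8 were lower and 1 higher, beside 6.61% and 6.31%. From nB to BMPC, 40 were called lower and 4 higher in Dnmt3-sufficient cells, beside 27.6% and 9.74% of all genes. In Dnmt3-deficient cells 39 were lower and 2 higher, beside 30.6% and 6.85%. The median changes over the lists in BMPC were -1.98 in both genotypes, beside -0.70 and -0.84 for all tested genes. Of the adaptors and kinases, the longest list, 17 of 27 were lower in Dnmt3-sufficient and 20 of 27 in Dnmt3-deficient BMPC and none higher. Other IkB family genes and negative regulators were lower in 12 and 9 of 19 with none higher, and the 12 tested receptors in 7 and 6 with 2 and 1 higher. Of the 15 target genes 4 were lower in each genotype, with 2 and 1 higher, and their median change was 0.31 and -0.21.

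Of each list, the called genes with the largest rise and the largest fall in Dnmt3-sufficient cells are named. They are extremes of their lists, so their p values come after selection and do not stand for the lists. Values here are of Dnmt3-sufficient cells where no genotype is given. Among receptors, Tnfrsf13b, which encodes TACI, fell from 116 to 155 FPKM in Dnmt3-sufficient nB to 40.5 to 43.4 FPKM in GCB (limma, adjusted p = 0.036). Cd40, the receptor for T cell help, was 191 to 230 FPKM in nB and 0, 12.3 and 19.5 FPKM in BMPC (adjusted p = 4.57e-05). Tnfrsf17, which encodes BCMA, the plasma cell survival receptor and also a plasma cell marker here, had 0 reads in nB and 173 to 482 FPKM in BMPC (adjusted p = 3.68e-09). Cd40 and Tnfrsf17 thus moved in opposite directions from nB to BMPC. The protein kinase gene Prkcb, which links the B cell receptor to NF-kB, was 58.8 to 70.1 FPKM in nB and 11.9 to 15.01 FPKM in GCB (adjusted p = 0.0139). The adaptor gene Traf5 was 32.2 to 46.8 FPKM in nB and at 0 in 2 of the 3 BMPC libraries, with 1.90 FPKM in the other (adjusted p = 4.37e-05). Both act upstream of the IkB kinases. Irak3, a brake on Toll-like receptor signaling, had 4.98 to 16.5 FPKM in nB and at most 0.873 FPKM in GCB (adjusted p = 5.92e-05). Among the target genes, Gadd45b rose from 2.79 to 10.03 FPKM in nB to 41.3 to 49.6 FPKM in GCB (adjusted p = 0.0296). The activation marker gene Cd83 was 424 to 482 FPKM in Dnmt3-sufficient nB and at most 8.13 FPKM in Dnmt3-sufficient BMPC (adjusted p = 9.73e-06). In Dnmt3-deficient BMPC Cd83 reached 13.9 FPKM. The chemokine gene Ccl3 had 0 reads in nB and 0.359, 16.4 and 24.3 FPKM in Dnmt3-sufficient BMPC (adjusted p = 0.00225) and 0 in Dnmt3-deficient BMPC.

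Tnip1, whose product binds the Tnfaip3 protein and restrains NF-kB, was 25.3 to 38.1 FPKM in Dnmt3-sufficient nB and 0.0879, 0.46 and 1.22 FPKM in BMPC (limma, adjusted p = 7.83e-07). In Dnmt3-deficient mice it was 22.6 to 39.8 FPKM in nB and 11.3 to 24.9 FPKM in BMPC, above every Dnmt3-sufficient BMPC library, and was not called between these cell types (adjusted p = 0.22). Beside Tnip1, 10.3% of the tested genes also had separate ranges in the BMPC of each genotype. Tnip1 was picked for its fall in Dnmt3-sufficient cells, so a call in that genotype alone does not show a genotype difference. The genotypes of BMPC are not tested here.

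**Figure D5:**
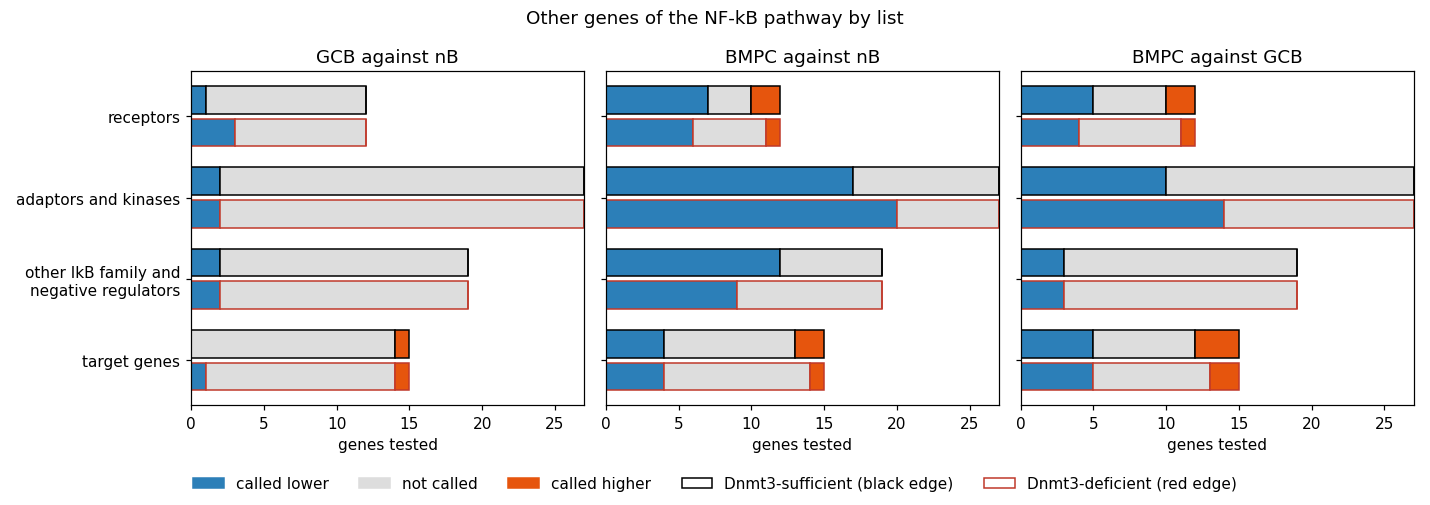
Number of tested genes in 4 lists of other NF-kB pathway genes that were called lower (blue), not called (grey) or called higher (orange) between cell types, in Dnmt3-sufficient (black edge) and Dnmt3-deficient cells (red edge). From nB to BMPC 17 and 20 of the 27 adaptors and kinases were lower.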

How the data were processed

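RNA-seq of 18 libraries of sorted mouse cells was analysed. The authors mapped read pairs to mm9 with TopHat, kept reads with a single hit and counted those unique to exons of UCSC KnownGenes. Whether strand was used is not stated, so overlapping and antisense genes are uncertain. The deposited FPKM values were computed by the authors from the summed exon length of each gene and the reads on all listed genes. The table also held 54 columns of the authors' comparisons (fold changes, p and FDR values from edgeR 3.12.1), which were not used. Multiplied by exon length, 100% of the values were whole multiples of the value of 1 read (tolerance 0.01), from which reads per gene were recovered.

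Groups and sex (10 female and 8 male libraries) came from the labels. Replicates came from different mice, pooled by 2 in GCB. Positions of members were taken from an mm9 gene annotation, promoters from RefSeq.

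The main test was limma 3.58.1 (R 4.3.3) on log2(FPKM + 1), which understates changes of low genes, with 1 mean per group over 18 libraries and an intensity trend, two-sided, with Benjamini-Hochberg adjustment over 11522 genes, those that exceeded 1 FPKM in 2 or more libraries. Calls needed an adjusted p no higher than 0.05 together with a log2 change no smaller than 1. Shares were tested by exact permutation of 6 against 6 libraries (scipy 1.17.1). The fit was tested on simulated data. The alternatives lowered the pseudocount to 0.1, dropped the filter or raised it to 3 FPKM in 3 libraries, scaled by median of ratios, fitted only the groups compared, added sex, weighted libraries by quality, used voom on the recovered reads, dropped the minimum change, added a replicate block in GCB, or left out each library.

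The members and lists were chosen with earlier results of these data known. All 10 members are named, and of each pathway list the called gene with the largest rise and the largest fall from nB to GCB and from nB to BMPC in Dnmt3-sufficient cells, and the 5 genes most like Relb. Read intervals and floors cover counting error only, since amplified reads are not independent molecules. Of replicates, no pair agreed within sampling noise (the lowest chi-square per degree of freedom was 22.3). One gene that the rule for named genes picks is not reported here.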

Additional observations from a re-analysis of the deposited data

How the results depend on the processing

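Of the 25 calls of a member in a comparison, 12 held under all 28 alternatives, 13 were lost under at least 1 and 0 turned direction. The number of members called in GCB against nB of Dnmt3-sufficient cells was 3, and became 6 with only the groups compared, 6 with a quality weight per library, 1 with the replicate block and 2 to 5 when a library was left out. For Dnmt3-deficient cells it was 2, and became 1 with a pseudocount of 0.1, 4 with only the groups compared, 5 with quality weights, 1 with the replicate block and 1 to 3 without a library. In BMPC against nB it was 7 in Dnmt3-sufficient cells (4 with only the groups compared, 5 to 8 without a library) and 6 in Dnmt3-deficient cells (5 to 7 without a library). In BMPC against GCB it was 3 in Dnmt3-sufficient cells (1 with only the groups compared, 5 with quality weights, 1 with the replicate block, and 3 to 5 without a library, 5 being reached without Dnmt3-deficient BMPC replicate 1 or Dnmt3-sufficient BMPC replicate 2) and 4 in Dnmt3-deficient cells (2 with the replicate block, 3 to 5 without a library). The share of all tested genes called lower moved too, in GCB against nB of Dnmt3-sufficient cells from 6.93% to 12.9% with only the groups compared, 16.2% with quality weights and 3.36% with the replicate block, in Dnmt3-deficient cells from 6.61% to 12.6%, 16.2% and 3.07%, in BMPC against nB of Dnmt3-sufficient cells from 27.6% to 16.9% with only the groups compared, and in BMPC against GCB of Dnmt3-sufficient cells from 20.9% to 15.5%, 17.4% and 10.6%. The genotype comparisons of nB and GCB and their interaction stayed at 0 called members under every alternative run. The cause of these differences was not tested.

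Shares of the subunits from nB to GCB, without each library in turn, ranged from -5.75 to -3.52 percentage points for Rel (exact permutation, adjusted p from 0.0144 to 0.0758), from 6.61 to 10.9 for Rela (0.0144 to 0.0758), from -3.31 to -1.80 for Relb (0.0108 to 0.13), from 9.25 to 11.5 for Nfkb1 and from -13.2 to -11.3 for Nfkb2. With reads in place of FPKM the Rela difference was 6.69 (adjusted p = 0.0736).

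GCB libraries share the start of their titles across genotypes. Deviations of libraries with the same start correlated at -8.06e-05, -0.0171 and 0.0257. With 3 libraries a group these values cannot show whether a start marks a shared experiment, so the replicate block is given as an alternative. It ended the calls of Rel (Dnmt3-sufficient) and Nfkb2 (both genotypes) in GCB against nB. In BMPC against GCB it ended those of Nfkb1 (both genotypes), Nfkbia (Dnmt3-sufficient) and Ikbkb (Dnmt3-deficient). That of Rela in Dnmt3-deficient BMPC against nB was lost too. Depth limits BMPC, where 3 reads of Rel weigh 0.305 to 0.857 FPKM.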
